A study of Homo sapiens
Mus musculus and Mus musculus and Homo sapiens with 16 samples.

Results

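The genes that make cholesterol and sense its supply were examined in lymphoma cells and stromal cells grown apart or together. The set held 32 named genes, found by symbol among 58051 human genes, and 31 of these had a mouse gene of the same symbol among 49671 mouse genes (Cyp51 stood for CYP51A1). By role, 8 act before squalene, 11 make squalene and sterols, 5 sense sterols, 5 move cholesterol and 3 are fatty acid desaturases. Enough counts for a test were present for 31 of 32 in human (all but ABCG1) and for 30 of 31 in mouse (all but Abca1).

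RNA was sequenced from REC-1, a human mantle cell lymphoma line, and MS-5, a mouse bone marrow stromal line. Sep were REC-1 cells in monoculture, Susp were REC-1 cells left in suspension above MS-5, Adh were REC-1 cells adhered to MS-5 and lysed with it, and MS-5 was the stroma alone. Each group had 4 libraries, the labels name no drug or genetic change, and the medium of all groups held 10% serum. The study kept cocultures in the medium of MS-5, αMEM, and maintained the lymphoma lines in RPMI. Its text names no medium for the Sep cultures, and the part of medium in differences from Sep was not tested. Stroma was seeded 24 h before the lymphoma cells and RNA was taken after 24 h of incubation, so each cell type is represented by 1 line at 1 time.

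Cholesterol is built from acetyl-CoA through mevalonate, isoprenoid chains, squalene and lanosterol. When membrane sterol is low, SCAP carries the SREBP transcription factors (from SREBF1 and SREBF2) to the Golgi, where they are cut and released to switch on the synthesis genes, the INSIG1 gene and desaturase genes. INSIG proteins hold SCAP back when sterol is plentiful, and LXR receptors then raise the efflux pumps ABCA1 and ABCG1.

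The stretches before the start sites show where such control could be read in these genes. Sequences are from build hg38, upstream of the canonical start in GENCODE release 44. A sterol regulatory element-like motif, TCACNCCA, was searched on both strands in 300 bases before each start. It was found in 5 of 32 genes (15.6%) and in 3.86% of 20032 protein-coding genes. The motif with its flanks is printed for 4 of the 5, with the motif in capitals, on the strand that reads TCAC.
HMGCS1, chr5:43313654-43313681, minus strand: cgtcagtctcTCACACCActtcctcggc
MVK, chr12:109573589-109573616, plus strand: ttcgcagttcTCACCCCAgggcgggaca
MSMO1, chr4:165327503-165327530, plus strand: ctcactatccTCACTCCAtccgcggagc
SREBF2, chr22:41832962-41832989, plus strand: tgacgcgccaTCACCCCAcgcaccgctt

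CCAAT, the letters bound by NF-Y, was found on either strand in 21 of the 32 windows (65.6%) and in 37.9% of all protein-coding genes. GGGCGG, an Sp1 box, was found in 32 of 32 (100%) and in 60.8% of all. Windows with both TCACNCCA and CCAAT made up 15.6% of the set and 1.52% of all genes. HMGCS1, INSIG1 and SCD were past the adjusted p between Adh and Sep, and their upstream stretches are printed as far as the first annotated base of the gene, with TCACNCCA and CCAAT, read on either strand, in capitals. FADS1 was past it too, but its window lies inside its own annotated span and is not printed. The printed stretches do not overlap another annotated gene, and a match is a description of letters, not of a bound site.
HMGCS1, chr5:43313513-43313712, minus strand: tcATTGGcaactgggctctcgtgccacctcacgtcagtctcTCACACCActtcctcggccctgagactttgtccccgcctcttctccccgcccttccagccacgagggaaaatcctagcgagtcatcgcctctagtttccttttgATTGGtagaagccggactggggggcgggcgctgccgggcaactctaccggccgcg
INSIG1, chr7:155297578-155297775, plus strand: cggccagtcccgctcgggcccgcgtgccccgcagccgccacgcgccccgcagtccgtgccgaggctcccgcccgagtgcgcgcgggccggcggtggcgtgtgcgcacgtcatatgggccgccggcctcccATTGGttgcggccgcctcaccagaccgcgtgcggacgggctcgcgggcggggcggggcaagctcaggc
SCD, chr10:100346933-100347232, plus strand: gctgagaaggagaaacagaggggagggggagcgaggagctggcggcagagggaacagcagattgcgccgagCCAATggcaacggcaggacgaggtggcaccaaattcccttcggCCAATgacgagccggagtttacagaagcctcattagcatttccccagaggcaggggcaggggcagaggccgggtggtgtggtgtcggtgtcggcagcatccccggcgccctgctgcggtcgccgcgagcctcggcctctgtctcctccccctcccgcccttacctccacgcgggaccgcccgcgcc

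Human counts per library ran from 7758979 to 21467832, and mouse counts from 10097555 to 17397651 in MS-5 alone and from 29495404 to 34615602 in Adh. The labelled cell types were checked against their markers, with levels as CPM, counts scaled to the library's total for that species after edgeR's trimmed-mean (TMM) adjustment. The 6 B cell genes summed to between 3649 and 4165 CPM over the REC-1 libraries, and CCND1 lay between 1135 and 2127 CPM. The 8 stroma genes summed to between 4673 and 5359 CPM in mouse counts, with Lum and Dcn at 0 in every library, and to between 1.80 and 4.81 CPM in human counts. The human counts of Adh libraries could still hold some mouse reads. Over 482 genes with at least 1000 mouse counts in Adh and at most 10 human counts in Sep and Susp, human counts in Adh had a median of 0% of the mouse counts, and a 99th percentile of 0.487%. Susp replicate 2 stood apart from the other Susp libraries, being highest for 15 and lowest for 9 of the 31 genes tested (37.9% and 38.1% of all genes). Susp replicate 1 was lowest for 16 (27.6% of all genes) and Adh replicate 1 lowest for 17 (25.8%). Counts and named values that change without Susp replicate 2 are given both ways.

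The first question was which sterol genes differ in REC-1 cells adhered to stroma from those grown alone. In Adh against Sep, 2 of 31 were called, both higher: INSIG1, the sterol-sensing brake on SREBP release, and FADS1, the delta-5 fatty acid desaturase. Called means a Benjamini-Hochberg adjusted p of at most 0.05 in edgeR's quasi-likelihood test and a fold change of at least 1.5, and 2.4% of the 12861 genes tested were called, 0.583% higher. At the adjusted p alone 4 were past the threshold, all higher, with SCD and HMGCS1 added (3.41% of all genes, 1.11% higher). At an unadjusted p under 0.05 there were 12, all higher, where 9.23% of all genes were higher at that level. The 31 genes had a median log2 fold change of 0.19 against -0.0034 for all genes tested, and 26 lay above 0, as did 49.5% of all genes. DESeq2 called the same 2 genes (4.1% of all genes), and 7 were past its adjusted p alone (7.57%). Bulk libraries cannot tell fewer cells of a kind from less RNA per cell.

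Between Susp and Sep, the cells with and without stroma beneath, no sterol gene was called by edgeR (0 of 31, where 0.731% of all genes were called). At an unadjusted p under 0.05 there were 13, all higher (9.32% of all genes were higher at that level), and DESeq2 called 1, SREBF1 (1.35%). The median log2 fold change was 0.20 and 25 of 31 lay above 0, as did 49.2% of all genes. Without Susp replicate 2 there were 11, all higher (5.69% of all genes), with HMGCS1 and SREBF2 added and MVD, FDFT1, MSMO1 and EBP no longer among them. With the replicate number in the model (the replicate block), edgeR called 2, MVD and SREBF1, both higher (1.36% of all genes). At the adjusted p alone the block gave 7, all higher (3.86%). Between Adh and Susp, the adhered and suspended fractions of the coculture, 0 of 31 were called by edgeR (0.778% of all genes) and 0 by DESeq2 (2.19%). At an unadjusted p under 0.05 there were 5, all higher in Adh (7.84% of all genes), HMGCS1, GGPS1, SC5D, INSIG1 and FADS1, and the median log2 fold change was 0.02. Without Susp replicate 2 there were 6, all higher (9.05% of all genes), with ACAT2 and HSD17B7 added and FADS1 no longer among them. Under the replicate block, genes lay on both sides at that level. HMGCS1, GGPS1, SC5D, INSIG1, FADS1 and SCD were higher (6 genes, 10.1% of all genes). MVD, LSS, TM7SF2, SREBF1 and SCAP were lower (5 genes, the share of all genes lower not being given). The comparisons share libraries, so their values are given side by side and not as independent of each other.

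**Figure D1:**
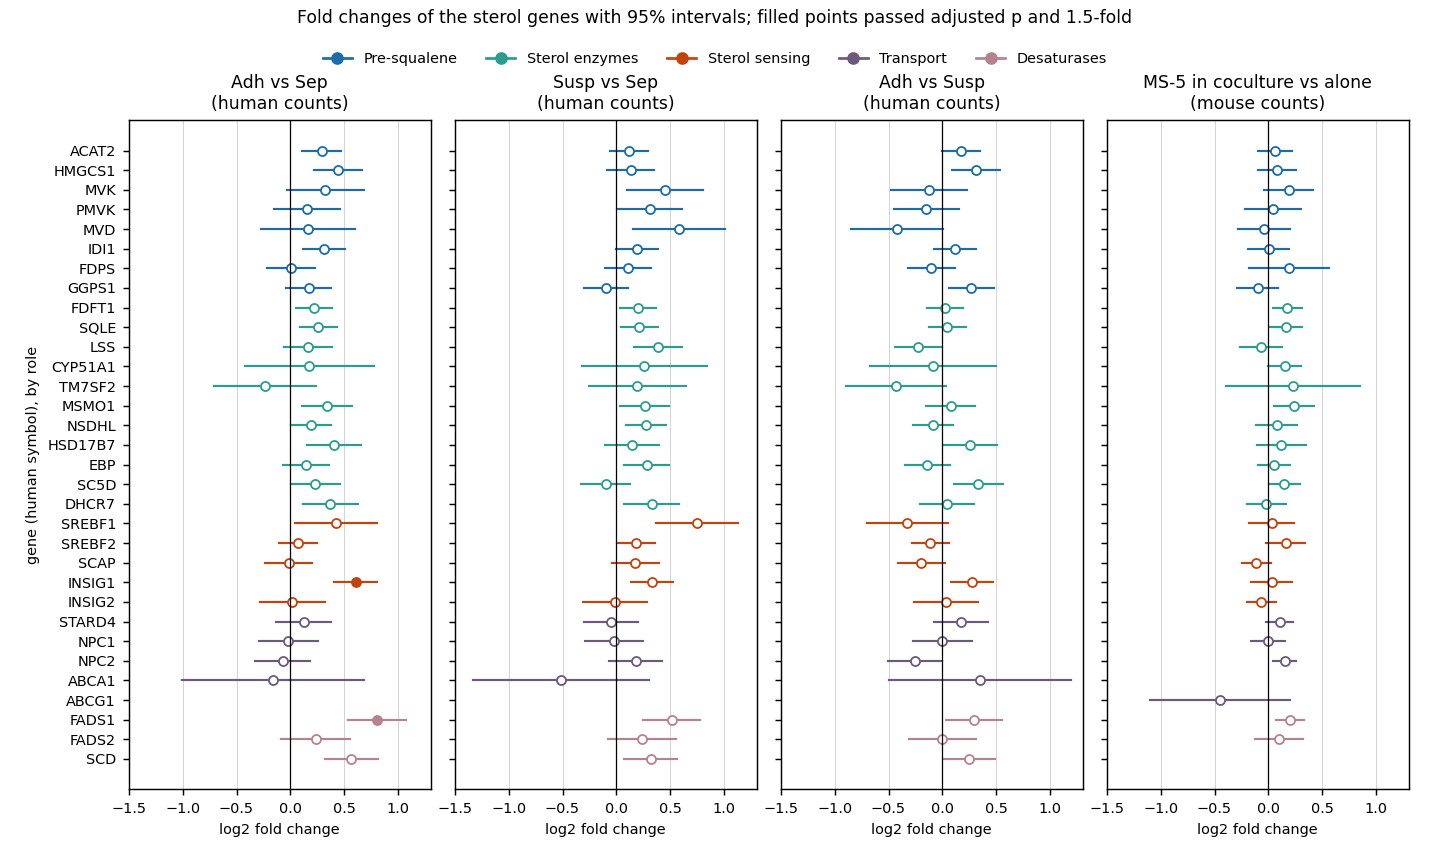
Log2 fold change of each sterol gene (point) with its 95% interval (line) in 4 comparisons, by role from top to bottom; filled points passed the adjusted p and the 1.5-fold minimum. Only INSIG1 and FADS1 in Adh against Sep are filled, and in that panel 26 of 31 points lie right of 0.

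Among the sterol sensors, INSIG1 was highest in Adh and lowest in Sep. It held 181, 145, 189 and 181 CPM in the Sep libraries, 203, 211, 218 and 244 CPM in Susp, and 242, 246, 284 and 287 CPM in Adh. All Susp and all Adh libraries lay above all Sep libraries, and Susp and Adh overlapped by 1 library. The mean level was 174 ± 19.7 CPM in Sep, 219 ± 17.8 CPM in Susp and 265 ± 24.3 CPM in Adh (SD, n = 4). The log2 fold change of Adh over Sep was 0.60 (SE 0.10), a fold of 1.52 with an adjusted p of 0.00244. That fold is near the 1.5 minimum, and it fell to log2 0.53 without Sep replicate 2, 0.57 without Adh replicate 3 and 0.56 without Adh replicate 4 (adjusted p 0.0103, 0.0117 and 0.0136), where INSIG1 was no longer called. Susp over Sep was 0.33 (SE 0.10, adjusted p 0.13) and Adh over Susp 0.27 (SE 0.10, adjusted p 0.18). INSIG1 lies on chromosome 7 (155297776 to 155310235, plus strand), and misassigned mouse reads at the 99th percentile would make up 0.371% of its human counts in Adh.

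SREBF1, which encodes the SREBP form tied most to fatty acid genes, had its highest mean in Susp. It held 38.3, 65.6, 60.5 and 72.4 CPM in Sep, 75.9, 113, 108 and 100.2 CPM in Susp, and 54.1, 86.9, 78.1 and 98.8 CPM in Adh. The Susp libraries lay above all Sep libraries, and the Adh libraries overlapped both groups, with replicate 1 lowest in all 3. Susp over Sep was log2 0.75 (SE 0.19), a fold of 1.68 with an adjusted p of 0.0781, so it was not called. Over the 8 fits that left out 1 library it ran from 0.59 to 0.86, with adjusted p from 0.0367 to 0.184. It was called in 1 of these, without Susp replicate 1 (0.86, adjusted p 0.0367), and it was not called without Susp replicate 2. DESeq2 gave an adjusted p of 0.0111 for this difference. In edgeR with the replicate number in the model (the replicate block) it was log2 0.77 with an adjusted p of 0.00036. Adh over Sep was 0.42 (SE 0.19, adjusted p 0.233), and 0.43 with an adjusted p of 0.0162 under the replicate block. SREBF2, the form tied most to cholesterol synthesis genes, lay between 163 and 215 CPM over all 12 libraries, with Susp above Sep in every library at log2 0.18 (SE 0.09, adjusted p 0.308). SCAP and INSIG2 had log2 fold changes between -0.19 and 0.18 in the 3 comparisons and no adjusted p under 0.36.

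Of the 8 genes acting before squalene, HMGCS1 was past the adjusted p alone in Adh against Sep. HMGCS1 joins acetoacetyl-CoA and acetyl-CoA. It held 220.4, 192, 205 and 189 CPM in Sep, 220.2, 177, 249 and 236 CPM in Susp, and 264, 239, 324 and 268 CPM in Adh. All Adh libraries were above all Sep libraries, while Susp overlapped both. Adh over Sep was log2 0.44 (SE 0.11), a fold of 1.36 with an adjusted p of 0.0403, which lies under the fold minimum, and it held without Sep replicate 1 or Adh replicate 2 (0.0266 and 0.0358). Without Sep replicate 2, 3 or 4 the adjusted p was 0.136, 0.0909 and 0.125, and without Adh replicate 1, 3 or 4 it was 0.0738, 0.133 and 0.0813. An antisense lncRNA covers 37.7% of its exon bases, and the strand setting of the counting is not given in the sources used here.

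ACAT2 condenses acetyl-CoA to acetoacetyl-CoA. It held 154, 122, 129.7 and 131 CPM in Sep, 139, 151, 148 and 144 CPM in Susp, and 151, 153, 174 and 179 CPM in Adh. Adh lay above Susp in every library, and Sep replicate 1 reached into the range of Adh. The log2 fold change was 0.29 (SE 0.09, adjusted p 0.0856) for Adh over Sep and 0.18 (SE 0.09, adjusted p 0.319) for Adh over Susp. GGPS1, which makes the chain used to prenylate proteins, held 49.1, 38.2, 50.2 and 41.7 CPM in Sep, 44.7, 43.5, 39.6 and 39.9 CPM in Susp, and 54.4, 45.1, 49.5 and 52.7 CPM in Adh. Adh lay above Susp in every library (log2 0.27, SE 0.11, adjusted p 0.214) and overlapped Sep. In GENCODE release 44 a second protein-coding gene on the same strand covers 37.3% of its exon bases, and whether the annotation used for counting holds it was not checked. The other 5, MVK and PMVK (mevalonate kinases), MVD (mevalonate decarboxylase), IDI1 (isopentenyl isomerase) and FDPS (farnesyl chain synthase), had log2 fold changes between 0.0054 and 0.32 in Adh over Sep and between 0.11 and 0.58 in Susp over Sep, with no adjusted p under 0.09.

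Of the 11 squalene and sterol enzymes, none was called in any of the 3 comparisons, while 10 of 11 lay above 0 both in Adh and in Susp against Sep, with medians of log2 0.22 and 0.26. LSS, which folds squalene epoxide into lanosterol, had the smallest adjusted p of the group in Susp against Sep. It held 125, 145, 144 and 176 CPM in Sep, 175.9, 192, 211 and 191 CPM in Susp, and 137, 177, 163 and 184 CPM in Adh. Its lowest Susp library was level with its highest Sep library, at 175.9 and 175.8 CPM. Susp over Sep was log2 0.38 (SE 0.11, adjusted p 0.12) and Adh over Sep 0.16 (SE 0.11, adjusted p 0.459). DESeq2 put LSS past its adjusted p alone in Susp against Sep.

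NSDHL, which removes carbons from the sterol ring at carbon 4, held 72.5, 60.9, 65.6 and 63.7 CPM in Sep, 72.6, 92.3, 74.5 and 78.9 CPM in Susp, and 76.8, 74.1, 74.5 and 74.2 CPM in Adh. Both coculture groups lay above Sep in every library, the margin over Sep replicate 1 being small. The log2 fold change was 0.28 (SE 0.09, adjusted p 0.176) for Susp, or 0.19 (adjusted p 0.367) without Susp replicate 2, and 0.19 (SE 0.09, adjusted p 0.275) for Adh. SC5D, a late desaturase of the ring, held 97.3, 75.6, 77.9 and 81.9 CPM in Sep, 82.6, 64.2, 83.8 and 80.2 CPM in Susp, and 107, 80.9, 105.5 and 97.5 CPM in Adh. Its groups overlapped, and Adh over Susp was log2 0.33 (SE 0.12, adjusted p 0.168), the smallest adjusted p of the 31 genes in that comparison. Under the replicate block the adjusted p of SC5D there was 0.0332. Of the other 8, SQLE (squalene epoxidase) and HSD17B7 (a sterol ketone reductase) lay above Sep in every Adh library, at log2 0.26 (adjusted p 0.106) and 0.40 (adjusted p 0.0879). FDFT1 (squalene synthase), SQLE and MSMO1 (a C4 methyl oxidase) lay above Sep in every Susp library, at log2 0.20, 0.21 and 0.26 with adjusted p between 0.244 and 0.274. EBP, DHCR7, TM7SF2 and CYP51A1, which finish or reshape the ring, overlapped between the groups. CYP51A1 was counted at 5.91 to 16.7 CPM only, and annotated genes on the same strand cover 68.2% of its exon bases. Misassigned mouse reads at the 99th percentile would make up 20.3% of its human counts in Adh.

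Genes whose groups did not overlap were counted beside the share over all genes. In Adh against Sep, 7 of 31 had every Adh library above every Sep library (7.42% of all genes) and 0 the reverse (8.3%). In Susp against Sep, 8 lay higher (5.5%) and 1, ABCA1, lower (5.85%). In Adh against Susp, 2 lay higher (5.61%), ACAT2 and GGPS1, and 0 lower (5.84%).

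Of the cholesterol transport genes none was called, and none was past an unadjusted p of 0.05 in REC-1 cells with the counts as deposited. STARD4 (a cytosolic sterol carrier), NPC1 and NPC2 (which release cholesterol from lysosomes) and ABCA1 had log2 fold changes between -0.16 and 0.13 in Adh over Sep, with adjusted p of 0.632 or more. In Susp over Sep they lay between -0.51 and 0.18, with adjusted p of 0.463 or more. ABCA1 was at 0.257 to 1.67 CPM in every REC-1 library and ABCG1 at 0 to 1.01 CPM. The 95% interval of ABCA1 for Adh over Sep ran from log2 -1.01 to 0.69, so its difference was poorly determined in either direction. NPC2 held 44.9 CPM in Susp replicate 2 against 31.2 to 32.5 CPM in the other Susp libraries. At the 99th percentile of misassignment, mouse reads would make up 15.3% of the human NPC2 counts in Adh. With that share taken off, NPC2 in Adh over Susp was log2 -0.46 (unadjusted p 0.00215, adjusted p 0.059), against -0.25 as counted (SE 0.13, adjusted p 0.311).

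The desaturases included the gene with the largest fold change of the set in Adh against Sep, FADS1, which puts a double bond into arachidonic acid precursors. It held 26.8, 24.3, 25.7 and 32.8 CPM in Sep, 37.5, 29.4, 44.6 and 44.99 CPM in Susp, and 43.8, 47.9, 50.4 and 49.9 CPM in Adh. Every Adh library lay above every Sep library, and in Susp replicate 2 was the one within the Sep range. The mean level was 27.4 ± 3.74 CPM in Sep, 39.1 ± 7.34 CPM in Susp and 47.99 ± 2.98 CPM in Adh (SD, n = 4). Adh over Sep was log2 0.81 (SE 0.14), a fold of 1.75 with an adjusted p of 0.00314. Susp over Sep was 0.51 (SE 0.14, adjusted p 0.0849), and 0.62 with an adjusted p of 0.00604 without Susp replicate 2, where it was called. Fads1 had the highest level of these genes in the stroma, so the human FADS1 count in Adh was open to misassigned mouse reads, which at the 99th percentile would make up 14.7% of it. With that share taken off, Adh over Sep was 0.60 (fold 1.51, adjusted p 0.014) and Adh over Susp 0.09, against 0.29 as counted (SE 0.13, adjusted p 0.263). Without Susp replicate 2 the latter was 0.19 (adjusted p 0.353).

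SCD, the stearoyl-CoA desaturase that makes oleic acid, held 931, 880.5, 975 and 926 CPM in Sep, 1083, 828, 1350 and 1364 CPM in Susp, and 1275, 1247, 1473 and 1493 CPM in Adh. All Adh libraries lay above all Sep libraries, and Susp replicate 2 lay below every Sep library while the other 3 lay above. Adh over Sep was log2 0.56 (SE 0.13), a fold of 1.48 with an adjusted p of 0.0211, just under the fold minimum. It was called without Sep replicate 3 (0.59), Adh replicate 1 (0.60) or Adh replicate 2 (0.61). Without Sep replicate 2 or 4, or Adh replicate 3 or 4, its adjusted p was 0.0799, 0.0559, 0.0644 and 0.0645. Susp over Sep was 0.32 (SE 0.13, adjusted p 0.233), and 0.44 with an adjusted p of 0.00886 without Susp replicate 2. FADS2, the delta-6 desaturase, had log2 0.24 in both coculture fractions (adjusted p 0.444 and 0.454). It shares 490 exon bases with FADS1 on the opposite strand.

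**Figure D2:**
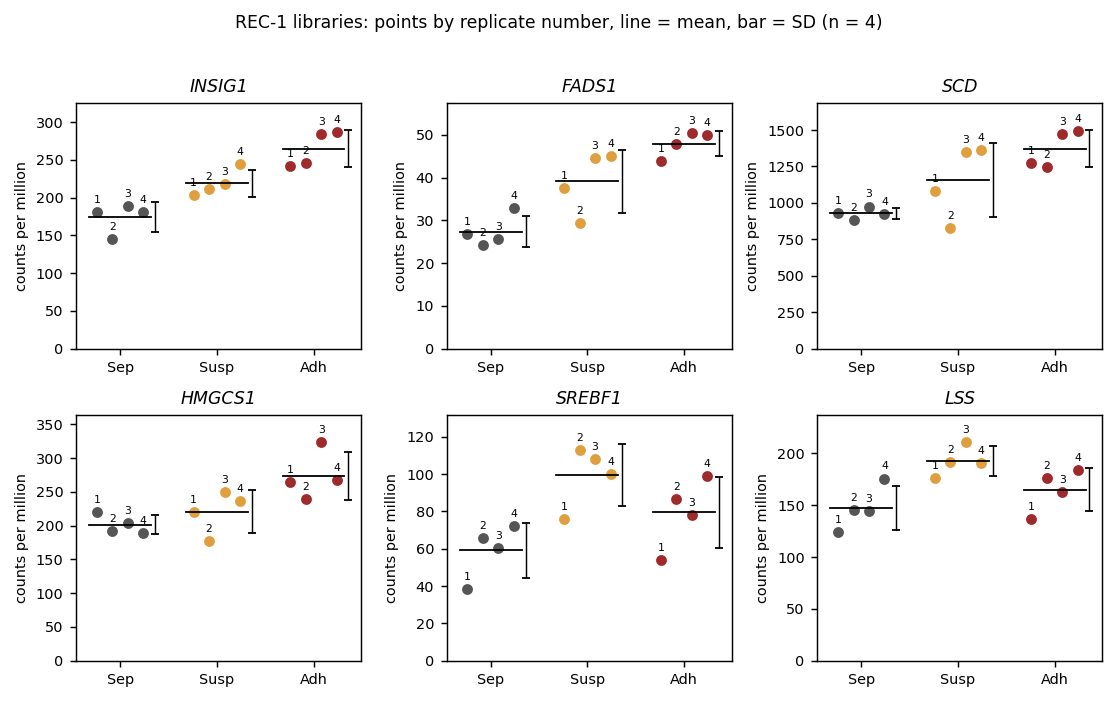
CPM of 6 sterol genes in each REC-1 library, with numbers for the replicate, a line at the mean and a bar for the SD (n = 4). INSIG1, FADS1, SCD and HMGCS1 lie higher in every Adh library than in any Sep library, and Susp replicate 2 is lowest of its group for FADS1, SCD and HMGCS1.

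The base composition of the genes moved with their fold changes. GC content was taken from the longest annotated transcript of each gene. Over the 31 genes, log2 fold change and GC content had a Spearman correlation of 0.568 in Susp over Sep, -0.713 in Adh over Susp and -0.161 in Adh over Sep. Over 12773 genes the values were 0.4, -0.507 and -0.108; genes share their libraries, so these are descriptions. GC-rich members such as SREBF1 (63.2%), MVD (63.7%) and LSS (58.1%) leaned to Susp, and GC-poor ones such as SC5D (36.9%), HMGCS1 (39%) and GGPS1 (40.4%) to Adh. Within groups, replicate 1 was lowest in all 3 REC-1 groups for 8 of 31 genes (11% of all genes were), MVK, PMVK, MVD, LSS, TM7SF2, DHCR7, SREBF1 and SCAP, with a median GC content of 60.4% against 44.8% for the other members. The part of base composition in the differences was not tested beyond a correction of the counts for GC content and length.

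**Figure D3:**
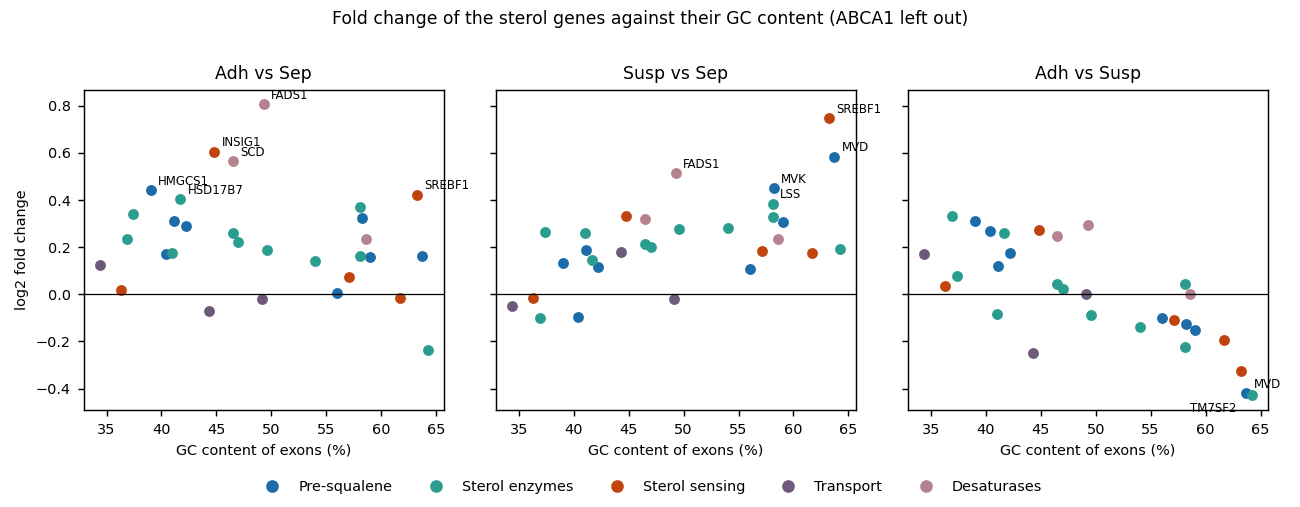
Log2 fold change of each sterol gene against the GC content in percent of its longest transcript (labelled as exons), coloured by role, in 3 comparisons of REC-1 groups. Names mark points more than 0.38 from 0. Points fall from left to right in Adh against Susp (Spearman -0.713) and climb in Susp against Sep (0.568), and ABCA1, at very low counts, is left out of the picture.

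With counts corrected for GC content and length, a setting added after the values were seen, 4 of 31 genes were called in Adh against Sep (3.66% of all genes), SREBF1, INSIG1, FADS1 and SCD. At the adjusted p alone 15 were past the threshold, all higher, where 11.9% of all genes were. They were ACAT2, HMGCS1, MVK, IDI1, SQLE, LSS, MSMO1, HSD17B7, SC5D, DHCR7, SREBF1, INSIG1, FADS1, FADS2 and SCD, with folds from 1.21 (SQLE, LSS) to 1.87 (FADS1). In Susp against Sep the corrected fit called 2 (0.916% of all genes), SREBF1 at log2 0.61 (adjusted p 0.000156) and FADS1 at 0.60 (adjusted p 0.00358). LSS (0.29, adjusted p 0.0294) and INSIG1 (0.37, adjusted p 0.0366) were past the adjusted p alone there (2.89%). In Adh against Susp the corrected fit called 0 of 31 (1.02%), and 0 at the adjusted p alone. Leaving out Susp replicate 2, with no such correction, put 10 genes past the adjusted p alone in Adh against Sep, all higher (11.9% of all genes). That library enters the estimate of the spread that the 3 groups share, and the cause of the change was not tested.

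**Figure D4:**
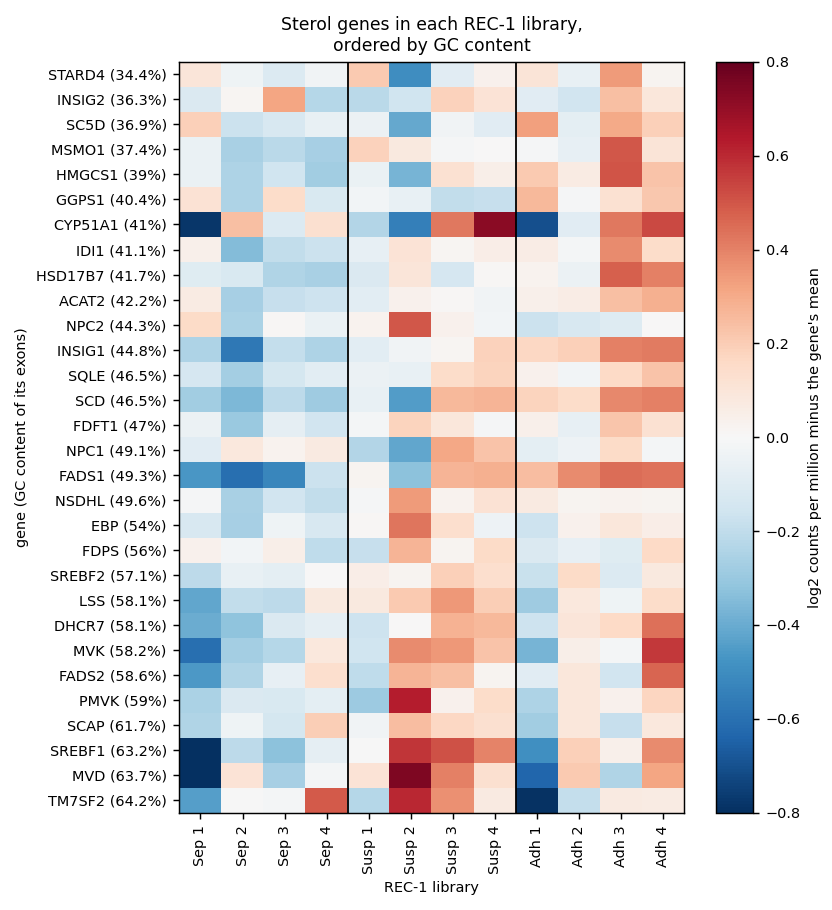
Deviation of each gene's log2 CPM from its mean over the 12 REC-1 libraries (red above, blue below). Genes are ordered from top to bottom by GC content of the longest transcript (labelled as exons). Most Sep cells are blue and most cells of Adh replicates 3 and 4 red, Susp replicate 2 runs from blue among GC-poor to red among GC-rich genes, and ABCA1 and ABCG1 are left out for their low counts.

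In the MS-5 stroma, the question was whether the same genes differ when lymphoma cells are attached. By edgeR 0 of 30 were called (0.205% of 12201 genes), 0 were past the adjusted p alone (0.77%), and DESeq2 called 0 (0.238%), with 0 past its adjusted p alone (2.09%). At an unadjusted p under 0.05 there were 5, all higher in coculture (5.16% of all genes), Fads1, Npc2, Fdft1, Msmo1 and Sqle. No gene had groups that did not overlap (3.06% of all genes were so on the high and 3.68% on the low side). The median log2 fold change was 0.08, with 22 of 30 above 0, as were 49.6% of all genes.

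Fads1 held 354, 363, 372 and 420.2 CPM in MS-5 alone and 396, 416, 453 and 472 CPM in coculture, with 1 library alone lying above 2 in coculture. Its log2 fold change was 0.20 (SE 0.07, adjusted p 0.216). Npc2 held 271, 235, 256 and 247 CPM alone and 293, 278, 264 and 285 CPM in coculture (log2 0.15, SE 0.05, adjusted p 0.269). For the sterol enzymes the differences were of the same size. Fdft1 held 59.6, 68.5, 65.3 and 63.1 CPM alone and 65.8, 75.2, 77 and 71.4 CPM in coculture (log2 0.18, SE 0.07, adjusted p 0.326). Msmo1 held 55.7, 75.2, 67.1 and 75.4 CPM alone and 69.9, 80.1, 86.6 and 84.5 CPM in coculture (log2 0.24, SE 0.09, adjusted p 0.343). Sqle held 129, 166, 142 and 155 CPM alone and 148, 163, 174.5 and 177 CPM in coculture (log2 0.17, SE 0.08, adjusted p 0.437). Replicate 1 was the lowest library for all 3 in both groups.

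Replicate 1 was lowest in both mouse groups for 13 of 30 genes, where 11.4% of all genes were so. Insig1 had a log2 fold change of 0.03 (95% interval -0.16 to 0.22), so a change as large as the 0.60 fitted for human INSIG1 lay outside its interval; the difference between the species was not tested. Mouse has several genes for stearoyl-CoA desaturase in place of SCD, and these were looked up after the other values were seen. Scd2 lay at 606 to 679 CPM alone and 755 to 898 CPM in coculture, without overlap, at log2 0.39 (SE 0.06, adjusted p 0.00922), under the fold minimum. Scd1 lay at 96.5 to 119 CPM alone and 116 to 165 CPM in coculture (log2 0.34, SE 0.10, adjusted p 0.145).

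Levels between genes are compared as RPKM, the CPM divided by the exon length in kilobases. That length joins the exons of all GENCODE transcripts of a gene, and may differ from the exons counted by the study. In Sep, SCD had the highest level at 177 RPKM, above all libraries of the next gene, FDFT1, at 67.7 RPKM. SQLE, ACAT2, IDI1 and INSIG1 followed at 57.4 to 47.7 RPKM, and each overlapped the next of these in its range over libraries. PMVK to HMGCS1 lay between 36.6 and 30.4 RPKM, DHCR7 to GGPS1 between 22.6 and 11.8 RPKM, and SC5D to FADS2 between 8.28 and 1.87 RPKM. ABCA1 (0.0954 RPKM) and ABCG1 (0.0611 RPKM) closed the order with overlapping ranges.

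In MS-5 alone the order differed. Fads1 led at 78.4 RPKM, against 2.68 RPKM for FADS1 in Sep, followed by Npc2 at 46.3 RPKM and Acat2 at 35.8 RPKM. Fads2 stood at 18.4 RPKM and Insig2 at 18.2 RPKM, against 1.87 and 3.44 RPKM for the human genes. The lower mouse values included those of Fdft1 (15.2 against 67.7 RPKM), Idi1 (9.10 against 48.4 RPKM), Dhcr7 (5.33 against 22.6 RPKM) and Lss (5.57 against 20.4 RPKM). The human and mouse tables were counted and scaled separately, so these pairs are set side by side with no test. The exon lengths used also differ by species, at 10228 bases for FADS1 against 4812 for Fads1, and 7238 for LSS against 10787 for Lss. Fdps, at 1.31 RPKM, shares 26.7% of its exon bases with Gm43738, a second annotated protein-coding gene on the same strand, and its level is uncertain.

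**Figure D5:**
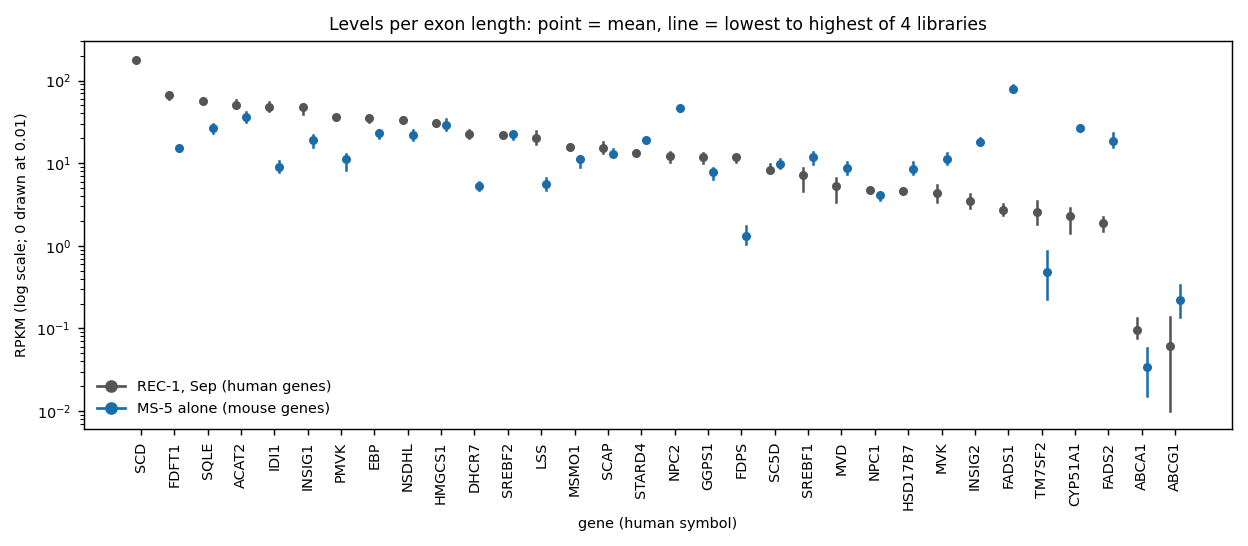
RPKM of each sterol gene on a log axis in REC-1 monoculture (grey, human gene) and MS-5 alone (blue, mouse gene), as the mean (point) and the lowest to highest of 4 libraries (line), in the order of the human level. SCD leads in REC-1 at 177 RPKM and has no mouse point, and Fads1 leads in MS-5 at 78.4 RPKM.

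Other genes of the pathway were counted as 4 lists, with no gene called in any comparison. Of 11 tested genes for fatty acid synthesis and further SREBP targets, 5 were higher in Adh against Sep at an unadjusted p under 0.05 and 0 lower, where 9.23% of all genes were higher. These were ACSS2 (acetyl-CoA synthetase, log2 0.30, adjusted p 0.155), ELOVL6 (a fatty acid elongase, 0.40, adjusted p 0.201), ELOVL5 (0.19), ME1 (malic enzyme, 0.25) and TMEM97 (0.25). In Susp against Sep 3 of 11 were higher (9.32% of all genes), ACSS2 (0.28), ELOVL6 (0.37) and AACS (acetoacetyl-CoA synthetase, 0.39, adjusted p 0.149). Of 8 genes that cut SREBPs or bind INSIG proteins, 1 was lower in Adh against Sep (SYVN1, an ubiquitin ligase, log2 -0.19, adjusted p 0.247) and 0 higher. Of 12 genes for LXR, efflux, storage and uptake, 0 were past an unadjusted p of 0.05 in Adh against Sep, and SCARB1 (a lipoprotein receptor, log2 0.34) was among those higher at that level in Susp against Sep. Of 10 genes that use isoprenoids for other ends, 1 was higher in Adh against Sep, ICMT (a methyltransferase of prenylated proteins, 0.19). In the stroma, 1 of 11, 1 of 8, 2 of 13 and 1 of 10 genes of the lists were higher at that level, where 5.16% of all genes were, and 1, Fasn, was lower. The share of all genes lower at that level is not given, so counts of lower genes in the lists are descriptions only. The median log2 fold changes of the 4 lists in Adh against Sep were 0.10, -0.01, 0.02 and 0.10.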

How the data were processed

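Whole-number counts per gene were deposited by the authors, who sorted reads by species using Xenome, mapped each part by STAR 2.5.1b to GRCh38 or GRCm38 and counted with featureCounts (Subread 1.5.2), according to the methods and the submitters' processing notes. The counts were neither normalized nor filtered. In all libraries counts of 2 were over 2 times as frequent as counts of 1, so a count may not be 1 independent fragment. Human counts of 12 REC-1 libraries and mouse counts of the 4 Adh and 4 MS-5 libraries were used, and 20 columns of other samples were not.

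Statistics were computed in R 4.3.3 with edgeR 4.0.16 (filterByExpr, TMM, quasi-likelihood test, 1 model of the REC-1 groups and 1 of the mouse counts), DESeq2 1.42.0 as an alternative, and CPM on TMM-scaled library totals. Intervals are 95%. The study describes the replicates as independent experiments, and Susp and Adh as cells within the cocultures. Sample titles give all libraries of a replicate number a shared number in their code. Neither the study nor the labels say what that shared number marks, and the main fits do not pair by it. The fits were tested on simulated data. Other alternatives were further normalizations and filters, thinning, leaving out each library, a replicate block, a correction for GC content and length by loess (span 0.3), halved counts and subtraction of carry-over. The GC and length correction with or without the block, halved counts, subtraction of carry-over and the block of 11 libraries were not among the planned settings. The replicate numbers were checked as pairs and did not correlate above 0.1 for all 4 numbers in any comparison. Number 1 did so in every comparison, at 0.286 to 0.321.

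The genes and lists were chosen with earlier results of these data known. Some genes of the other pathway lists entered the counts and are not reported here by name. Library values are printed for the genes called and for the 5 with the smallest adjusted p of each comparison. Exon lengths, GC content and positions came from GENCODE release 44 (human) and M21 (mouse), and upstream sequences were read from hg38 at its canonical starts in place of a RefSeq promoter table, which was not used here.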

Additional observations from a re-analysis of the deposited data

Results flagged for a closer look

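In 3 of 153 groups of 4 libraries (1.96%) a sterol gene had 1 library whose gap to the others exceeded Dixon's 95% limit, and chance gives about 1 in 20. NPC2 held 44.87 CPM in Susp replicate 2 against 31.2 to 32.5 CPM in the other Susp libraries. FDPS held 50.04 CPM in Adh replicate 4 against 41.3 to 42.7 CPM in the others. Scap held 109 CPM in MS-5 replicate 3 against 92.5 to 93.97 CPM in the others. None of these genes was called in a comparison.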

How the results depend on the processing

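In Susp against Sep, where no sterol gene was called and none was higher by that rule, 2 were called and higher with the replicate block (MVD, SREBF1; 1.36% of all genes were called), 2 without a filter on low counts (MVD, SREBF1; 0.765%), 1 by DESeq2 (SREBF1; 1.35%), and 2 (SREBF1, FADS1) with the GC and length correction (0.916%), with that correction and the replicate block (0.924%), and with 11 libraries and the replicate block (1.1%). Leaving out single libraries gave 0 to 1. In Adh against Sep the 2 calls, both higher, became 4 with no fold-change minimum (3.41%) and 4 with the GC and length correction (3.66%), and 1 to 3 when single libraries were left out. In the other settings run, and in all settings for Adh against Susp and for the stroma, these counts were within 1.5 times the reported ones, and FADS1 was called in Adh against Sep in 21 of 21 alternatives. The median log2 fold change in Adh against Susp, 0.02, ran from -0.0438 to 0.0744 and so changed sign, and SREBF1 there, not called, went from -0.34 with the replicate block to 0.02 with the GC and length correction. By the check made, replicate number 1 correlated at 0.286 to 0.321 in every comparison, while numbers 2 and 3 lay at 0.126 or less. Number 4 reached 0.198 in Adh against Sep and 0.161 in the stroma. The numbers may thus pair the samples in part, and the main fits leave this out. With the replicate block 2 genes were called in Adh against Sep, 0 in Adh against Susp and 0 in the stroma. At the adjusted p alone it gave 7 in Adh against Sep, all higher (5.65% of all genes). It gave 2 in Adh against Susp (5.33%), SC5D higher (adjusted p 0.0332) and SREBF1 lower (0.0445). In the stroma it gave 2 (3.57%). In Susp against Sep the block gave 7, all higher, at the adjusted p alone (3.86%) against 0 without it, with SREBF1 at 0.00036. With 11 libraries the block gave 10 in Adh against Susp (14.6%). Among these were MVD, LSS and SREBF1, which were lower in Adh under the block of all 12 libraries. The cause of these changes was not tested. Genes at about 1 CPM, such as ABCA1, are limited by counting error, and other limits are 4 libraries a group, differences in base composition between libraries and overlapping genes.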

Other observations

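STARD4-AS1, a lncRNA antisense to STARD4, was singled out after its values were seen. It had 18 to 33 counts in Sep, 10 to 34 in Susp and 3 to 10 in Adh, or 1.88 to 2.76, 0.615 to 2.12 and 0.385 to 0.752 CPM. Adh over Sep was log2 -2.13 (SE 0.42, adjusted p 0.00957 by edgeR), while STARD4 itself was at log2 0.13 (SE 0.13, adjusted p 0.632). The 2 genes share 124 exon bases, 2.18% of those of STARD4. Susp over Sep was -0.70 (SE 0.35, adjusted p 0.31).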
